A study of Mus musculus with 12 samples.

Results

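The results below concern genes whose response to the mutation differed between a pair of cell populations of newborn mouse kidney. All 12 libraries of the series, 12 of 12, entered the comparison. RNA of flow-sorted cells from kidneys at postnatal day 0 was measured by RNA sequencing after SMART-Seq amplification for low RNA input. The titles give 2 mutant high, 2 control high, 4 mutant low and 4 control low libraries. Here high and low are the words of the titles for the expression by which a population was called, and the labels do not say which signal that was. The labels describe every library as Six2-expressing cells of a kidney carrying the R26R-tdTomato reporter. This is a red fluorescent protein placed at the Rosa26 locus and switched on by recombination. The series title names Eed, a core subunit of Polycomb repressive complex 2, but the sample labels name neither the mutated gene nor the allele, the driver of recombination or the strain. The descriptions number the libraries, and 4 of those numbers are each shared by 1 high and 1 low library of a genotype, but the labels do not say whether a number is an animal. Nothing else there ties a library to an animal, so the p-values measure the spread between these libraries, which may be technical. For each gene the mutant effect is the log2 fold change of mutant against control within a population, and the difference of effects is the effect in high cells minus the effect in low cells. A positive difference means a more positive mutant effect in high cells, whatever the sign of either effect.

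The nephron, the filtering unit of the kidney, arises from progenitor cells of the cap mesenchyme that express the transcription factor Six2. Progenitors either renew or, under Wnt and Notch signals, commit and become the podocytes of the glomerulus and the tubule segments. Polycomb repressive complex 2 methylates lysine 27 of histone H3 and keeps many developmental regulators silent. Its core subunits are Eed, Suz12 and the methyltransferases Ezh2 or Ezh1, and Jarid2 and Phf19 are partners that help to place it on chromatin.

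Library totals were 7779040 to 9307989 fragments in mutant high, 4549011 to 6249263 in control high, 5948488 to 12317879 in mutant low and 6784907 to 12365078 in control low cells. The control high libraries stood apart, with 4.51% and 10.3% of fragments on chromosome M, against 0.795% to 1.17% in mutant high, 0.494% to 1.68% in mutant low and 0.767% to 1.96% in control low cells. Their 100 most abundant loci held 29.1% and 34.4% of fragments, compared with 18.8% to 22.1% in the other 10 libraries. Fragments on chromosome Y numbered 934 to 2101 in 6 libraries and no more than 2 in any of the remaining 6. Control high libraries had 0 and 1 and mutant high libraries 0 and 2101, and each low group held libraries of both kinds. Libraries sharing a description number were alike in having or lacking these fragments in 4 of 4 pairs. Eed itself had 4.73 and 7.26 CPM (fragments scaled to the effective library size) in mutant high cells, against 8.74 and 9.07 CPM in control high cells. In mutant low cells Eed had 7.27, 11.1, 5.44 and 9.91 CPM, against 14.4, 13, 15.5 and 13.4 CPM in control low cells. The mutant libraries lay below the control libraries without overlap in both populations, yet the difference between genotypes passed the test in neither (adjusted p = 0.291 in high and 0.107 in low cells), and the difference of effects was 0.17 (SE 0.47, adjusted p = 0.861). Deposited values cover the whole Eed locus, so they do not show whether a part of the gene was deleted.

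The summed level of marker genes described what the populations held. The 17 nephron progenitor markers measured summed to 556 and 644 CPM in mutant high cells, against 130 and 247 CPM in control high cells, and to 2418 to 2894 CPM in mutant low cells, against 3825 to 4960 CPM in control low cells. The 40 proximal tubule markers ran the other way between populations, with 7087 and 7849 CPM in mutant high cells, against 32018 and 47044 CPM in control high cells, and 149 to 239 CPM in mutant low cells, against 337 to 1245 CPM in control low cells. Markers of the loop of Henle and distal tubule, of the ureteric bud and collecting duct, and of the podocyte are given beside the genes they move with. High cells were thus rich in tubule RNA and low cells in progenitor RNA, in control and mutant kidneys alike. The labels call the high libraries Six2-expressing too, yet Six2 itself was lower in them than in low cells, as given below. These are bulk samples, in which fewer cells of a type and less RNA per cell cannot be told apart.

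**Figure D1:**
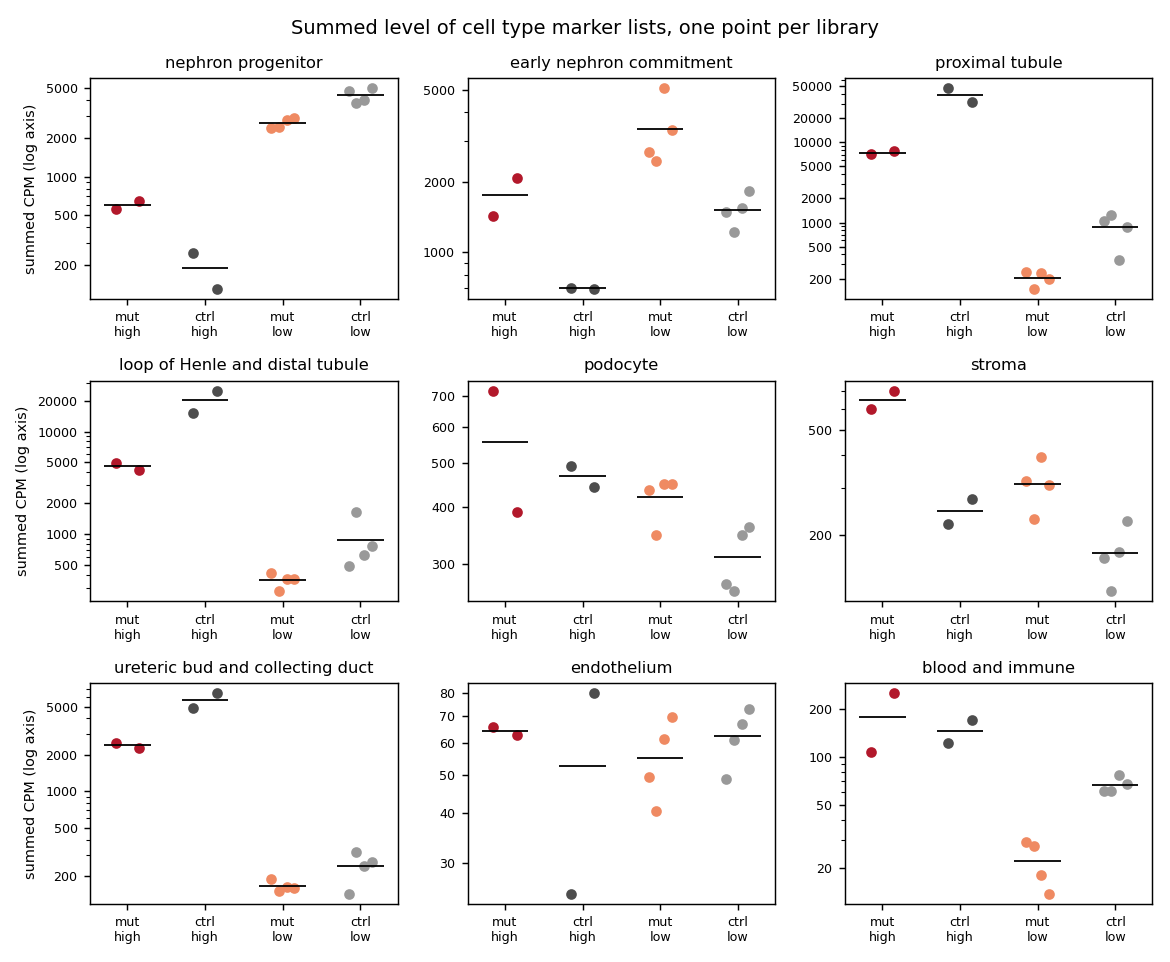
Summed CPM (log axis) of 9 lists of cell type markers, with 1 point per library and a bar at the mean of each group, mutant left of control within each population. Progenitor markers summed to 556 and 644 CPM in mutant high, 130 and 247 CPM in control high, 2418 to 2894 CPM in mutant low and 3825 to 4960 CPM in control low cells, and proximal tubule markers show the reverse order of populations.

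Of 13749 loci tested, 1422 (10.3%) responded differently to the mutation in high and low cells at an adjusted p under 0.05 in edgeR's quasi-likelihood test. At 1002 loci (7.29% of those tested) the effect was more positive in high cells, and at 420 (3.05%) it was more negative. The last locus called had an adjusted p of 0.0499 and the first not called 0.0504. Loci tested had a median difference of effects of 0.15 on the log2 scale, which a trend of each library on locus length, once removed, shifted to -0.05. The split of the calls moved with the scaling: 70.5% of them were more positive in high cells as fitted, 59.4% in DESeq2 (1055 against 720), 63.5% with size factors by relative log expression, and 50.8% with the length trend removed (690 against 669). With a block for the description number, which sets high against low libraries within those pairs, 1031 loci were called and 839 of the 1422 were among them. Low libraries with a number of their own add nothing to this comparison. It therefore rests on fewer libraries and fewer residual degrees of freedom than the main fit, and a call that it ended is not shown to be false. Where the block ended the call of a gene described below, its adjusted p is given. The count fell to 572 without control high replicate 2, to 663 without mutant high replicate 2 and to 835 without control high replicate 1.

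Most of these loci responded to the mutation in high cells. In the single fit of 4 groups, 2239 loci (16.3%) were higher and 1541 (11.2%) lower in mutant than in control high cells, and 663 (4.82%) were higher and 441 (3.21%) lower in mutant than in control low cells. Of the 1002 loci with a more positive effect in high cells, 815 were called higher in mutant high cells and were not called in low cells, 66 were called higher in both populations and 44 were called higher in mutant high but lower in mutant low cells. A further 33 were called lower in mutant low cells alone, 43 were called in neither population, and 1, Cldn2, was called lower in both. Whether called or not, 563 of the 1002 had a positive fitted effect in high and a negative one in low cells. Of the 420 loci with a more negative effect, 324 were called lower in mutant high cells and were not called in low cells, 50 were called higher in mutant low cells alone and 16 were called lower in mutant high but higher in mutant low cells. Another 11 were called lower in both populations, 4 were called higher in both and 15 were called in neither. Whether called or not, 230 of the 420 had a negative fitted effect in high and a positive one in low cells. A locus not called in low cells is not shown to be without an effect there.

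**Figure D2:**
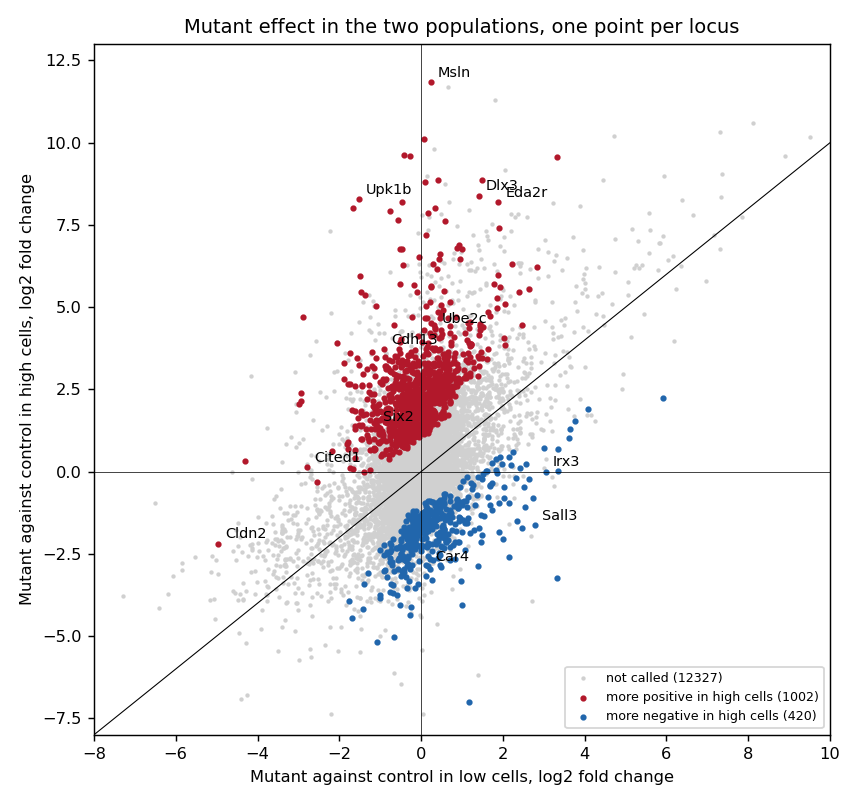
Each point is 1 of 13749 loci, placed by the log2 fold change of mutant against control in low cells (horizontal) and in high cells (vertical), with equal effects on the diagonal. The 1002 loci in red lie above the diagonal, mostly near 0 on the horizontal axis, and the 420 in blue lie below it. Fitted values of loci with a group at 0 depend on the prior count, and 3 loci lie outside the axes.

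Among the 12 named genes with the smallest adjusted p for a more positive effect in high cells, control high cells had the lowest mean of the 4 groups at each. Msln (chr17:25885557-25891323, minus strand), which encodes the mesothelial surface protein mesothelin, had 54.2 and 54.5 CPM in mutant high cells and no fragment in either control high library. Mutant low cells had 0.462, 0.305, 0.556 and 0.244 CPM of Msln, against 0.234, 0.544, 0.432 and 0.164 CPM in control low cells. High cells were separated by genotype without overlap and low cells overlapped. With 3 fragments put in place of 0 over the control high group, Msln was at least 151-fold higher in mutant high cells, and the difference of effects had an adjusted p of 0.00048.

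Another 3 of the 12 encode proteins of the matrix or the cell surface, and they differed in what low cells did. Cdh13 (chr8:120807654-121847348, plus strand), a cadherin held in the membrane by a lipid anchor, had 14.1 and 11.3 CPM in mutant high cells, against 1.04 and 0.851 CPM in control high cells. In mutant low cells it had 8.43, 7.77, 13.4 and 12.3 CPM, against 20.9, 17.7, 20.6 and 19.9 CPM in control low cells. The groups did not overlap in either population, and they stood in opposite order: Cdh13 rose with the mutation in high cells by 3.71 (SE 0.44) and fell by 0.91 in low cells (adjusted p = 0.0252), a difference of 4.63 (SE 0.50, adjusted p = 0.00048). Tnc, the matrix glycoprotein tenascin C, had 109 and 61.8 CPM in mutant high cells, against 13.9 and 10.5 CPM in control high cells, and 135 to 218 CPM in mutant low cells, against 253 to 376 CPM in control low cells. Its effects were opposite too, with a difference of 3.69 (SE 0.42, adjusted p = 0.000511), and a locus on the other strand, 8030451A03Rik, held 13.1% as many fragments. Sulf1, a secreted enzyme that trims heparan sulfate, differed by 3.62 (SE 0.40, adjusted p = 0.00048), with 44.6 and 42.3 CPM in mutant high cells, against 2.70 and 3.69 CPM in control high cells. Low cells did not separate for Sulf1, with 53.4 to 76.5 CPM in mutant and 44.8 to 71.6 CPM in control libraries.

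Signalling and regulatory genes among the 12 were Phlda3, Eda2r, Socs3, Masp1 and Meis2. Phlda3, a p53-induced inhibitor of the kinase Akt, had 137 and 122 CPM in mutant high cells, against 7.49 and 6.52 CPM in control high cells, and 71.1 to 125 CPM in mutant low cells, against 55.2 to 66.3 CPM in control low cells. It rose in both populations, by 4.20 (SE 0.34) in high and 0.70 (SE 0.20, adjusted p = 0.0454) in low cells, and the difference was 3.50 (SE 0.38, adjusted p = 0.00048). Eda2r, a receptor of the tumour necrosis factor family and another p53 target, had 41.2 and 37.4 CPM in mutant high cells, against 0.208 and 0 CPM in control high cells, where a single fragment was counted. The ratio of fragments was 329, with a counting interval at 95% of 58.9 to 13021. Eda2r also rose in low cells, with 25.7, 13.6, 23.6 and 22 CPM in mutant libraries, against 4.91, 5.03, 7.89 and 5.09 CPM in control libraries, so the groups were apart in both populations and further apart in high cells (adjusted p of the difference = 0.000629). Socs3, the feedback inhibitor of cytokine receptors, had 181 and 87.5 CPM in mutant high cells, against 16.2 and 10.5 CPM in control high cells, a difference of effects of 3.88 (SE 0.45, adjusted p = 0.000517).

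Masp1, a serine protease of the lectin pathway of complement, had 34.6 and 23.3 CPM in mutant high cells, against 4.37 and 1.70 CPM in control high cells, and 35.1 to 40.9 CPM in mutant low cells, against 64.6 to 111 CPM in control low cells. It rose in high and fell in low cells, with a difference of 4.40 (SE 0.51, adjusted p = 0.000511). For the homeobox factor Meis2 the level in mutant high cells, 20.3 and 21 CPM against 3.12 and 3.12 CPM in control high cells, stayed below that of either low group, 40.7 to 53.2 CPM in mutant and 53.9 to 74.9 CPM in control libraries. The difference of effects at Meis2 was 3.18 (SE 0.35, adjusted p = 0.00048). Lsp1, an actin-binding protein, differed by 3.45 (SE 0.41, adjusted p = 0.000566), and Syt12, a synaptotagmin, by 4.07 (SE 0.48, adjusted p = 0.000566), but a locus on the other strand of Syt12, A930001C03Rik, held 54.8% as many fragments. A low group had the highest mean at 9 of the 12 genes, and the exceptions were Msln, Phlda3 and Eda2r, which were highest in mutant high cells.

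**Figure D3:**
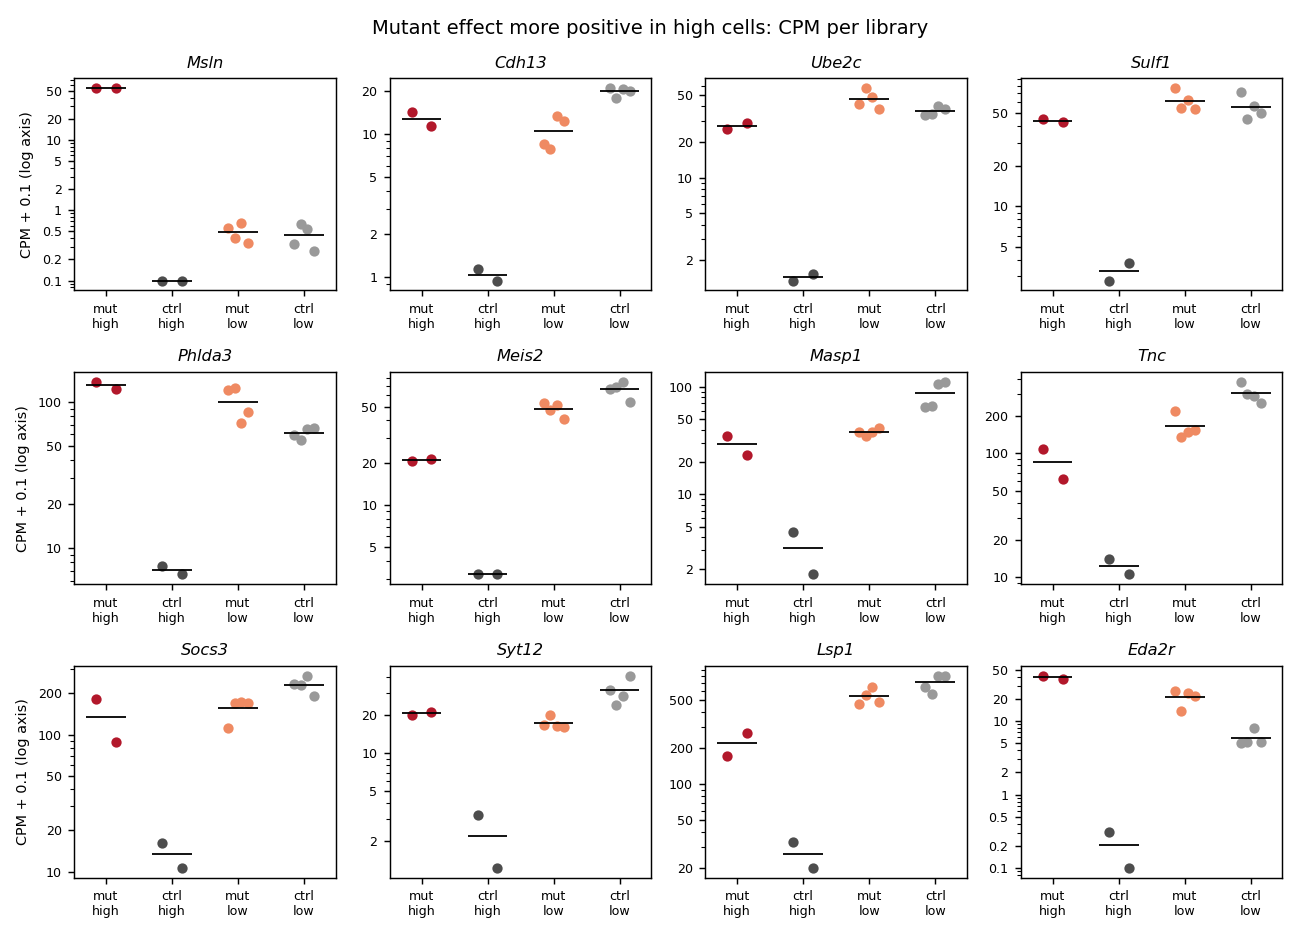
CPM plus 0.1 (log axis) of the 12 named genes with the smallest adjusted p for a more positive mutant effect in high cells, with 1 point per library and a bar at the group mean. In all 12 panels control high is the lowest group, as in Cdh13, with 1.04 and 0.851 CPM there.

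Ube2c (chr2:164595428-164598402, plus strand), the last of the 12, encodes the ubiquitin-conjugating enzyme of the anaphase-promoting complex. It had 25.4 and 28.8 CPM in mutant high cells, against 1.25 and 1.42 CPM in control high cells. Mutant low cells had 41.4, 57.0, 48.0 and 38.1 CPM, against 33.6, 34.1, 40.5 and 37.8 CPM in control low cells. Only the high groups were apart, and the difference of effects was 4.00 (SE 0.40, adjusted p = 0.00048).

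The gene lists below were chosen with earlier results of these data known, so their shares describe them and test nothing. Of 31 cell cycle genes tested, 7 were called and all 7 were more positive in high cells, 22.6% of the list against 7.29% of all loci. Their median difference was 1.18, against 0.15 over all loci, and 30 of 31 had a positive difference. In mutant high cells 20 of the 31 were called higher, against 16.3% of all loci, and in mutant low cells 0 were, against 4.82%. The 7 were Bub1b and Aurkb of the spindle checkpoint and chromosome passenger machinery, Top2a, the cyclin Ccnb2, the replicative helicase subunit Mcm4, and the centromere genes Cenpa and Cenpe. Bub1b had 103 and 187 CPM in mutant high cells, against 28.7 and 16.7 CPM in control high cells, and 233 to 286 CPM in mutant low cells, against 140 to 220 CPM in control low cells. Top2a, which untangles replicated chromosomes, differed by 1.67 (SE 0.44, adjusted p = 0.0257), and Ccnb2 by 1.66 (SE 0.44, adjusted p = 0.0285). Bub1b alone kept its call in each fit that left out 1 library. Top2a (adjusted p = 0.181), Mcm4 (0.263) and Cenpe (0.251) lost it without mutant high replicate 2, and Cenpa (0.191), Aurkb (0.175) and Ccnb2 (0.114) without control high replicate 2. With the block for the description number 4 genes were called, and the call ended at Aurkb (adjusted p = 0.0552), Mcm4 (0.0846), Cenpa (0.0682) and Cenpe (0.0633). With the length trend removed 3 were called, and the call ended at Ccnb2, Mcm4, Cenpa and Cenpe. The count of 7 fell to 1 if either mutant high replicate 2 or control high replicate 2 was omitted, and to 2 if control high replicate 1 was. The 31 genes summed to 2760 and 5653 CPM in mutant high cells, against 1464 and 1551 CPM in control high cells, and to 7290 to 12003 CPM in mutant low cells, against 5933 to 8352 CPM in control low cells, so the libraries of mutant high cells lay far apart.

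Promoters are shown for 3 of the cell cycle genes named here, as RefSeq gives them on GRCm38.p6. They run from 250 bases before to 50 bases after the start. Promoters of many mitotic genes are known to carry CCAAT boxes, bound by NF-Y, and a cell cycle homology region, here searched as TTTGAA, and matches on either strand are in capitals. Ube2c lies at chr2:164769679-164769978 on the plus strand, Ccnb2 at chr9:70421505-70421804 and Top2a at chr11:99024140-99024439, both on the minus strand.
Ube2c: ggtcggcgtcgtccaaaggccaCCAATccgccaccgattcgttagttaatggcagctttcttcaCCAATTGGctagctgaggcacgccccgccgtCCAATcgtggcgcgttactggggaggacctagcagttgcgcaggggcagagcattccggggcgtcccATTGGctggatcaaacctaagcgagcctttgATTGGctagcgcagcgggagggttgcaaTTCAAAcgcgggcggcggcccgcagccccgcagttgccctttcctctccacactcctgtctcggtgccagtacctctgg
Ccnb2: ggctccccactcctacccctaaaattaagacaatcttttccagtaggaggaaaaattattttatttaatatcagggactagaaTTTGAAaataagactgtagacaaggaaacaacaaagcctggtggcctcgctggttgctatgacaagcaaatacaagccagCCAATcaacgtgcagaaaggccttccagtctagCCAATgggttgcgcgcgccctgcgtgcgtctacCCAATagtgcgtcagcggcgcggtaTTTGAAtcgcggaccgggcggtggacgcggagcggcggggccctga
Top2a: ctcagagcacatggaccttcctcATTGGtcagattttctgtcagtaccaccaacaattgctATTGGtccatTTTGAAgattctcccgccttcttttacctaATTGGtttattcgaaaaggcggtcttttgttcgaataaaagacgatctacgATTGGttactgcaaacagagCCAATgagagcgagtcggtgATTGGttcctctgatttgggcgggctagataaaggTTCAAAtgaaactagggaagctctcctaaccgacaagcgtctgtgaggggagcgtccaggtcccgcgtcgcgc
The Ube2c promoter held 6 CCAAT and 1 TTTGAA, with a pair of CCAAT in opposite directions overlapping in its first part, the Ccnb2 promoter 3 and 2, and the Top2a promoter 6 and 2. Of the 8 cell cycle genes named here, 6 matched a promoter in the table. CCAAT was found in 6 of 6, against 37.9% of 27025 promoters, and TTTGAA in 5 of 6, against 18.1%. Both motifs together occurred in 5 of 6, against 7.12%. Promoters not shown held fewer matches, with 2 CCAAT and 1 TTTGAA at Cenpa, 1 and 1 at Bub1b and 1 and 0 at Cenpe. These motifs are known in mitotic genes at large, and cell cycle genes that were not called were not compared. The shares therefore say nothing about the difference of effects. A match of letters is a description and no evidence of binding in these cells.

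The nephron progenitor genes listed had a more positive fitted mutant effect in high than in low cells. This list too was chosen with earlier results known, so its share of calls tests nothing. Of the 17 tested, 10 were called, all more positive in high cells, 58.8% of the list against 7.29% of all loci, with a median difference of 2.27. Within high cells 9 of 17 were called higher in the mutant, against 16.3% of all loci. Within low cells 4 were called lower, against 3.21%, and 1 higher, against 4.82%. Six2 (chr17:86083607-86087594, minus strand), the transcription factor that keeps progenitors undifferentiated, had 97.2 and 113 CPM in mutant high cells, against 63.4 and 16.7 CPM in control high cells. In mutant low cells Six2 had 693, 743, 775 and 960 CPM, against 1967, 1587, 1360 and 1897 CPM in control low cells. The groups did not overlap in either population and stood in opposite order: Six2 rose by 1.38 (SE 0.45, adjusted p = 0.0331) with the mutation in high cells and fell by 1.10 (SE 0.31, adjusted p = 0.0397) in low cells, a difference of 2.49 (SE 0.54, adjusted p = 0.011). Without mutant high replicate 2 the call at Six2 was lost (difference 2.35, adjusted p = 0.0537).

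Cited1, a transcriptional coregulator that marks the least committed progenitors, showed its difference through low cells. It had 3.86 and 4.68 CPM in mutant high cells, against 3.33 and 4.54 CPM in control high cells, and 5.20, 6.55, 1.22 and 2.76 CPM in mutant low cells, against 35.0, 31.0, 21.4 and 19.5 CPM in control low cells. High cells overlapped and low cells did not, and the difference was 2.91 (SE 0.73, adjusted p = 0.0212). Wt1, a zinc-finger factor of progenitors and podocytes, showed it through high cells, with 22.6 and 11.1 CPM in mutant, against 5.41 and 3.12 CPM in control libraries, and overlapping low groups (difference 2.30, SE 0.54, adjusted p = 0.0161). Eya1, the coactivator of Six2, had 46.6 and 64.2 CPM in mutant high cells, against 28.3 and 3.12 CPM in control high cells, and 352 to 397 CPM in mutant low cells, against 621 to 937 CPM in control low cells (difference 2.86, SE 0.72, adjusted p = 0.0237). Rspo1, a secreted amplifier of Wnt signals, differed by 3.33 (SE 0.53, adjusted p = 0.00199) and Osr1, an early intermediate mesoderm factor, by 4.21 (SE 1.10, adjusted p = 0.0268). Tmem100 differed by 3.68 (SE 0.57, adjusted p = 0.00168) and rose in both populations, with 50 and 91.3 CPM in mutant high cells, against 1.46 and 1.42 CPM in control high cells. The remaining genes called were Hoxa11, Hoxc10 and Sall1, and for Hoxa11 a transcript on the other strand, Hoxa11os, held 95.9% as many fragments. A single omission ended the call at Cited1 (adjusted p = 0.106 without control high replicate 1), Wt1 (0.127 without control high replicate 2), Eya1 (0.107 without mutant high replicate 2), Osr1 (0.152 without control high replicate 2) and Sall1 (0.206 without control high replicate 2). Blocking by description number ended it at Eya1 (adjusted p = 0.149) and Sall1 (0.122).

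Progenitor genes in high cells moved beside the summed markers of tubule given above, which were lower in mutant high than in control high cells, and the part of this in the result was not tested. Omitting the mutant high libraries singly left a count of 7 (replicate 1) or 5 (replicate 2) in place of 10, and omitting the control high libraries left 9 (replicate 1) or 6 (replicate 2).

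Early commitment genes called for the difference were mostly more positive in high cells, and nothing is read from the single negative call. Of 18 tested, 4 were more positive in high cells (22.2%, against 7.29% of all loci) and 1 more negative (5.56%, against 3.05%), with a median of 0.28. The 4 became 2 without mutant high replicate 2 or control high replicate 2. The single negative call became 2 once control high replicate 1 was left out. Bmper, a secreted modulator of bone morphogenetic proteins, had 12.8 and 13.4 CPM in mutant high cells, against 2.91 and 0.567 CPM in control high cells, and 21.6, 22.2, 6.55 and 16.6 CPM in mutant low cells, against 53.3, 55.6, 72.1 and 66.0 CPM in control low cells. It rose with the mutation in high cells and fell in low cells, with a difference of 4.70 (SE 0.71, adjusted p = 0.00162). Wnt4, the signal that drives progenitors into epithelium, had 30.7 and 25.4 CPM in mutant high cells, against 5.20 and 5.95 CPM in control high cells, while low cells overlapped at 70.8 to 145 CPM in mutant and 91.6 to 133 CPM in control libraries (difference 2.35, SE 0.43, adjusted p = 0.00415). Sox9, a factor of ureteric tips and of early and regenerating tubule, rose in both populations and more in high cells (difference 2.61, SE 0.60, adjusted p = 0.0146), a call lost without control high replicate 2 (adjusted p = 0.103) or mutant high replicate 2 (adjusted p = 0.0512).

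In the Wnt pathway, 8 of 40 genes tested were more positive and 1 was more negative in high cells, 20% against 7.29% and 2.50% against 3.05% over all loci, with a median of 0.62. The ligands Wnt4 and Wnt11, the enhancers Rspo1 and Rspo3, the receptor Fzd2, the nuclear factor Tcf7l1, the secreted antagonist Sfrp2 and the feedback inhibitor Nkd1 made up the 8. Nkd1 had 66.9 and 71.4 CPM in mutant high cells, against 11.9 and 8.79 CPM in control high cells, with overlapping low groups, and a difference of 2.73 (SE 0.41, adjusted p = 0.00162). Sfrp1, a secreted Wnt antagonist, was opposite to its relative Sfrp2: Sfrp1 had 73.4 and 76.7 CPM in mutant high cells, against 180 and 258 CPM in control high cells, and 22.3 to 39.8 CPM in mutant low cells, against 8.07 to 17.2 CPM in control low cells (difference -2.64, SE 0.45, adjusted p = 0.00289). Sfrp2 had 114 and 162 CPM in mutant high cells, against 13.5 and 11.3 CPM in control high cells, and rose in low cells as well. Rspo3 lost its call without mutant high replicate 2 (adjusted p = 0.0745) or control high replicate 2, and Fzd2 without control high replicate 2 (adjusted p = 0.196) and 6 other libraries in turn. Tcf7l1 lost its call under the block for the description number (adjusted p = 0.0826).

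Of 44 genes of the BMP, TGF-beta and FGF pathways, 8 were more positive (18.2%, against 7.29% of all loci) and 1 was more negative (2.27%, against 3.05%), with a median of 0.45. The 8 became 5 if either mutant high library or control high replicate 1 was left out. They became 4 if control high replicate 2 was. The members that lost their call were the signal transducer Smad1 (highest adjusted p = 0.0555), the receptor Tgfbr2 (0.108), the ligand Tgfb2 (0.142) and the inhibitor Smad6 (0.195). The block for the description number also ended the call at Smad1 (adjusted p = 0.0823), Tgfbr2 (0.0579) and Tgfb2 (0.0594). Removing the length trend ended it at Tgfbr2, Tgfb2 and Smad6. The FGF target genes Etv4 and Etv5, both transcription factors, and the feedback inhibitor Spry4 were among the 8. Etv4 had 139 and 163 CPM in mutant high cells, against 42.2 and 17.9 CPM in control high cells, with overlapping low groups at 332 to 573 CPM in mutant and 445 to 629 CPM in control libraries (difference 2.69, SE 0.47, adjusted p = 0.00339). Spry4 differed by 2.46 (SE 0.43, adjusted p = 0.00328) and Etv5 by 1.79 (SE 0.34, adjusted p = 0.00539). Fgf9, a ligand that maintains progenitors, was the gene more negative in high cells: it had 42.3 and 42.3 CPM in mutant high cells, against 87.4 and 91.9 CPM in control high cells, and 20, 30.8, 24.3 and 25.2 CPM in mutant low cells, against 9.82, 14.9, 10.8 and 10.3 CPM in control low cells. The Fgf9 groups did not overlap in either population and stood in opposite order, with a difference of -2.21 (SE 0.36, adjusted p = 0.00221). Tgfb3 had a difference of 3.12 (SE 0.45, adjusted p = 0.00138), but reads of Ttll5 on the other strand came to 43.5% of its own. In the Notch pathway 3 of 21 genes were more positive (14.3%, against 7.29% of all loci), namely the coactivator Maml3 and the target genes Hey1 and Heyl, and the median was 0.36. Of these 3, Hey1 (adjusted p = 0.138) and Heyl (0.16) were not called without control high replicate 2 or mutant high replicate 2.

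Genes of other cell types of the kidney also differed. Of 10 mesothelial and urothelial genes tested, from a list put together after the values had been seen, 6 were more positive in high cells. This share, 60% against 7.29% of all loci, tests nothing because of how the list was chosen. A group with no fragment occurred at 4 of the 10. Their median difference was 4.64, or 2.80 with groups at 0 set to 3 fragments. Upk1b, a uroplakin of urothelium, had 43.8 and 40.6 CPM in mutant high cells, against 0 and 0.284 CPM in control high cells, where a single fragment was counted, and at most 0.333 CPM in mutant low and 0.903 CPM in control low libraries. The ratio of Upk1b fragments in high cells was 353, with a counting interval at 95% of 63.2 to 13965, and the difference of effects had an adjusted p of 0.000688. Krt5, a keratin of basal epithelium, had 17.9 and 5.42 CPM in mutant high cells and no fragment in control high cells, at least 32.3-fold higher against 3 fragments over the group (adjusted p = 0.02), a call lost without mutant high replicate 1 (adjusted p = 0.0577) or either control high library. Krt19 had 590 and 412 CPM in mutant high cells, against 82.4 and 81.1 CPM in control high cells, and 3.78 to 6.81 CPM in mutant low cells, against 3.27 to 5.84 CPM in control low cells (difference 2.34, SE 0.41, adjusted p = 0.00339). Upk3b, not called with the block for the description number (adjusted p = 0.0812), and Wt1 completed the 6. The list's 11 genes with a locus, tested or not, summed to 944 and 1321 CPM in mutant high cells. In control high cells they summed to 637 and 736 CPM. Without mutant high replicate 1 or control high replicate 2 the count was 3.

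Ureteric bud and collecting duct genes had 4 of 16 more positive (25%, against 7.29% of all loci) and 1 more negative (6.25%, against 3.05%) in high cells, with a median of 1.16. Those more positive were Upk1b, Krt19, Wnt11 and Ret. Wnt11, a ligand of ureteric tips, had 68.8 and 74.2 CPM in mutant high cells, against 12.5 and 5.95 CPM in control high cells, with overlapping low groups (difference 2.94, SE 0.51, adjusted p = 0.00339). Ret, the receptor of ureteric tips for the growth factor Gdnf, rested on 3 fragments in control high cells, and its ratio in high cells was 21.3, with a counting interval of 7.16 to 105, and its call was lost without either control high library (adjusted p = 0.0567 and 0.0796) and with the block for the description number (adjusted p = 0.0526). Gata3, a factor of the ureteric lineage, was more negative in high cells and rose in low cells, with 16.7, 9.75, 19.2 and 19.7 CPM in mutant, against 1.99, 3.26, 2.92 and 5.83 CPM in control low libraries (difference -2.01, SE 0.56, adjusted p = 0.0348), a call lost without mutant high replicate 2 (adjusted p = 0.155) and 4 other libraries in turn. The 16 genes together summed to 2288 and 2517 CPM in mutant high cells, against 4904 and 6421 CPM in control high cells, so the 4 members more positive in high cells moved against the sum of their list.

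Podocyte genes had 5 of 17 more positive in high cells (29.4%, against 7.29% of all loci), Wt1, Synpo, Tcf21, Ptpro and Kirrel, with a median of 1.61. This rested on single libraries: the count was 0 without mutant high replicate 1, 0 leaving out control high replicate 2 and 2 leaving out control high replicate 1. Blocking by description number ended the calls at Tcf21 (adjusted p = 0.0907), Ptpro (0.101) and Kirrel (0.0758). Removing the length trend ended those at Ptpro and Kirrel. Ptpro, a phosphatase of podocyte foot processes, had 25.1 and 6.28 CPM in mutant high cells, against 4.58 and 1.98 CPM in control high cells. The 19 podocyte genes with a locus, tested or not, summed to 390 and 720 CPM in mutant high cells. In control high cells they summed to 443 and 494 CPM, so the mutant libraries lay on either side of the controls. Stroma had 3 of 12 genes more positive, Lum, Meis1 and Postn (25%, against 7.29% of all loci), and 1 more negative, the guidance cue Ntn1 (8.33%, against 3.05%), with a median of 1.40. Without mutant high replicate 2 or control high replicate 2 the 3 became 0, and without control high replicate 1 they became 1. Lum (adjusted p = 0.0696) and Postn (0.164) were not called with the block for the description number. The 14 stroma genes with a locus, tested or not, summed to 595 and 699 CPM in mutant high cells. In control high cells they summed to 221 and 274 CPM. Of 7 blood and immune genes 1 was called (14.3%, against 7.29% of all loci), the globin Hbb-bt, at an adjusted p of 0.0498. Its call was lost without either mutant high library (difference 2.54 without replicate 1 and 1.73 without replicate 2) and 7 others in turn. Of 9 endothelial genes edgeR and DESeq2 called 0, against 10.3% of all loci by edgeR. An unadjusted p under 0.05 in edgeR occurred at 1 of the 9, against 3484 of 13749 loci.

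Of 11 genes of PRC2 and its partners, 3 were more positive in high cells (27.3%, against 7.29% of all loci) and 1, Jarid2, more negative (9.09%, against 3.05%), with a median of 0.28. Ezh2 had 76.2 and 135 CPM in mutant high cells, against 49.5 and 26.7 CPM in control high cells, and 154 to 229 CPM in mutant low cells, against 145 to 204 CPM in control low cells. High groups were apart and low groups overlapped for Ezh2, with a difference of 1.48 (SE 0.43, adjusted p = 0.0422). Ezh1 differed by 1.22 (SE 0.37, adjusted p = 0.0471) and Phf19 by 3.0 (SE 0.78, adjusted p = 0.026), the last with 11.0, 12.5, 3.56 and 7.88 CPM in mutant low cells, against 26.3, 33.0, 25.8 and 20.8 CPM in control low cells. Without mutant high replicate 2 (adjusted p of 0.279 at Ezh2, 0.0945 at Ezh1 and 0.11 at Phf19) or control high replicate 2 (0.242, 0.255 and 0.153) none of these 3 was called. With the block for the description number Ezh2 (adjusted p = 0.056) and Ezh1 (0.099) were not called. Nor was either called with the length trend removed. Suz12, with 14.5 and 11.7 CPM in mutant high cells, against 13.5 and 11.9 CPM in control high cells, had a difference of -0.34 (SE 0.44, adjusted p = 0.673). Of 18 genes of PRC1 and its partners edgeR and DESeq2 called 0, against 10.3% of all loci by edgeR. An unadjusted p under 0.05 in edgeR was reached by 1 of the 18, against 3484 of 13749 loci.

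Jarid2 (chr13:44826206-45016346, plus strand) had the smallest adjusted p of all named genes (4.42e-07) and held no fragment in any of the 4 control low libraries. It had 161 and 155 CPM in mutant high cells, 134 and 117 CPM in control high cells and 234, 225, 296 and 207 CPM in mutant low cells, from 412 to 2661 fragments per library. A failed estimate would also give a 0 in every library of a group, so no fold change is given. No other locus had 0 in every library of a group and at least 100 fragments in each of the other libraries.

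Hox genes, the positional regulators that Polycomb complexes keep in check, had 5 of 30 tested more positive in high cells (16.7%, against 7.29% of all loci), with a median of 0.73, or 0.21 with groups at 0 set to 3 fragments. These were Hoxa11, Hoxc10, Hoxc6, Hoxc5 and Hoxc8, of which 4 lie in the HoxC cluster. Hoxc10 had 44.7 and 31.5 CPM in mutant high cells, against 17.7 and 14.5 CPM in control high cells, and 110 to 155 CPM in mutant low cells, against 174 to 272 CPM in control low cells. It rose in high cells and fell in low cells, with a difference of 2.03 (SE 0.37, adjusted p = 0.00438). Hoxc6 and Hoxc5 rested on 1 fragment each in control high cells, with ratios in high cells of 12.2 (counting interval 2.01 to 499) and 9.47 (1.52 to 392). The call at Hoxc5 was lost without control high replicate 1 (adjusted p = 0.152) or mutant high replicate 2 and with the block for the description number (adjusted p = 0.0835). That at Hoxc8 without control high replicate 2 (adjusted p = 0.173) and 6 other libraries in turn.

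Of 105 homeobox, paired-box, T-box and GATA factors of other lineages, 50 passed the filter on low counts, and 24 of these had a group with no fragment. A member could pass through the group where it was high, so nothing is read from their number of calls within a population. For the difference of effects 4 of the 50 were more positive (8%, against 7.29% of all loci) and 1 was more negative (2%, against 3.05%) in high cells, shares near those of all loci. The median difference was 1.14 as fitted and -0.45 with groups at 0 set to 3 fragments, so no direction can be read from it. Dlx3, a homeobox factor of skin and placenta, had 5.70 and 4.18 CPM in mutant high cells and no fragment in control high cells, at least 13.7-fold higher, and 7.04 to 11.6 CPM in mutant low cells, against 2.79 to 3.74 CPM in control low cells (adjusted p of the difference = 0.00422). Msx2, a limb and craniofacial factor, had 15 and 11.3 CPM in mutant high cells, against 0.832 and 1.13 CPM in control high cells, with overlapping low groups (difference 3.48, SE 0.66, adjusted p = 0.00515). Dlx5 and Six3 were also more positive in high cells, but each lost its call without control high replicate 2 (difference 3.13 and 1.62) or either mutant high library. Dlx5 lost its call with the block for the description number too (adjusted p = 0.0601), and in DESeq2. It rested on 1 fragment in control high cells, with a ratio in high cells of 57.7 (counting interval 10.2 to 2298).

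Among 6 inhibitors of cyclin-dependent kinases edgeR and DESeq2 called 0 for the difference, against 10.3% of all loci by edgeR. An unadjusted p under 0.05 in edgeR was found at 1 of the 6, against 3484 of 13749 loci. Cdkn2a, the p16 and p19Arf locus and a classic Polycomb target, had 4.15 and 2.09 CPM in mutant high cells and none in control high cells, at least 8.68-fold higher, and 5.31, 5.64, 2.00 and 1.06 CPM in mutant low cells and none in control low cells, at least 43.6-fold higher. Both control groups stood at 0, so a difference of these effects cannot be measured. Of 23 p53 target genes tested, from a list put together after the values had been seen, 5 were more positive in high cells. These were Phlda3, Eda2r, Trp53inp1, Ddias and Plk2. Their share, 21.7% against 7.29% of all loci, tests nothing because of how the list was chosen. Trp53inp1 had 130 and 109 CPM in mutant high cells, against 26.4 and 23.0 CPM in control high cells, with overlapping low groups (difference 2.06, SE 0.32, adjusted p = 0.00189). Ddias lost its call without control high replicate 2 (adjusted p = 0.0948) or mutant high replicate 2, and Plk2 without control high replicate 1 (adjusted p = 0.15) and 4 other libraries in turn. Plk2 was not called with the block for the description number either (adjusted p = 0.0708). Other targets did not follow: Cdkn1a had 167 and 171 CPM in mutant high cells, against 181 and 163 CPM in control high cells, and Ccng1 rose by a log2 fold change of 1.22 in high and 1.29 in low cells.

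Genes with a more negative mutant effect in high cells were led, apart from Jarid2, by transporters, enzymes and regulators abundant in control high cells. Sall3 (chr18:81163112-81183317, minus strand), a zinc-finger repressor, had 14.2 and 9.72 CPM in mutant high cells, against 27.9 and 46.8 CPM in control high cells. Mutant low cells had 17.8, 11.0, 11.6 and 12.9 CPM of Sall3, against 1.64, 1.49, 2.70 and 1.81 CPM in control low cells. The order of genotypes was opposite in the populations, without overlap in either, and the mutant libraries of the populations overlapped, with a difference of effects of -4.42 (SE 0.50, adjusted p = 0.000486).

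Car14, Slc35f2, Slc38a3 and Papss2 shared this crossing, being called lower in mutant high and higher in mutant low cells. Car14, a membrane carbonic anhydrase, had 34.8 and 38.8 CPM in mutant high cells, against 140 and 121 CPM in control high cells, and 28.5 to 32.8 CPM in mutant low cells, against 12.2 to 18.5 CPM in control low cells (difference -2.83, SE 0.34, adjusted p = 0.000566). Slc38a3, a glutamine transporter, had 64.5 and 44.2 CPM in mutant high cells, against 126 and 149 CPM in control high cells, and 45.3 to 65.0 CPM in mutant low cells, against 13.9 to 26.2 CPM in control low cells (difference -2.88, SE 0.40, adjusted p = 0.00109). Papss2, which makes the sulfate donor of sulfation reactions, had 100 and 126 CPM in mutant high cells, against 419 and 315 CPM in control high cells, and 33.9 to 65.5 CPM in mutant low cells, against 10.9 to 18.5 CPM in control low cells (difference -3.11, SE 0.44, adjusted p = 0.00122). Mutant libraries of the 2 populations thus lay closer together for these genes than control libraries did.

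Irx3, an Iroquois factor of intermediate nephron segments, responded in low cells. It had 73.0 and 55.4 CPM in mutant high cells, against 72.6 and 56.4 CPM in control high cells, and 59.0, 43.3, 69.5 and 78.7 CPM in mutant low cells, against 5.50, 7.07, 6.16 and 11.5 CPM in control low cells. High groups overlapped, low groups did not, and mutant low cells were within the range of high cells or close to it (difference -3.05, SE 0.46, adjusted p = 0.00162).

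Cpox, Car4, Fads3, Gpc4 and Neurl4 were called lower in mutant high cells and were not called in low cells. Their mutant effects in low cells were 0.11, 0.17, 0.44, 0.60 and 0.00. Car4, another membrane carbonic anhydrase, had 86.9 and 65.4 CPM in mutant high cells, against 568 and 556 CPM in control high cells, with overlapping low groups between 12.2 and 24.3 CPM in mutant and 12.9 and 21.7 CPM in control libraries (difference -3.06, SE 0.41, adjusted p = 0.000956). Gpc4, a heparan sulfate proteoglycan, had 449 and 373 CPM in mutant high cells, against 1818 and 1258 CPM in control high cells (difference -2.51, SE 0.35, adjusted p = 0.00102). The heme synthesis enzyme Cpox differed by -2.36 (SE 0.30, adjusted p = 0.000688), the desaturase family member Fads3 by -2.44 (SE 0.34, adjusted p = 0.00101) and Neurl4 by -2.23 (SE 0.32, adjusted p = 0.00124).

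**Figure D4:**
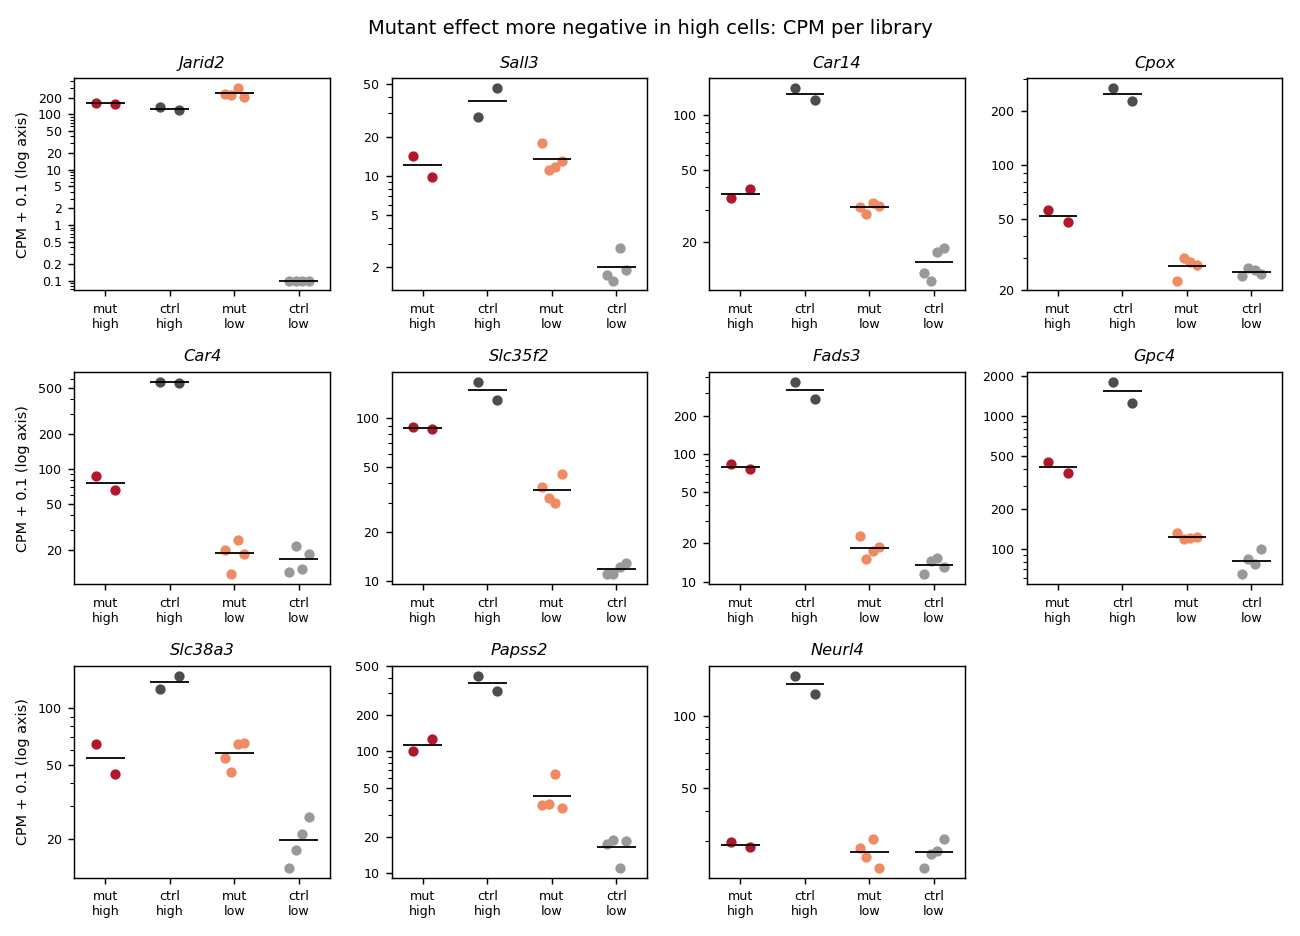
CPM plus 0.1 (log axis) of 11 of the 12 named genes with the smallest adjusted p for a more negative mutant effect in high cells, with 1 point per library and a bar at the group mean. Control high is the highest group in all panels but Jarid2, which is listed at 0 in control low cells, and Sall3 shows opposite orders of mutant and control in the populations.

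Many genes of mitochondrial energy production fell in mutant high cells. Of 27 fatty acid oxidation genes, 4 were called for the difference, all more negative in high cells (14.8% against 3.05% of all loci), with a median of -0.95. In high cells 20 of the 27 were called lower in the mutant, against 11.2% of all loci, and in low cells 6 were, against 3.21%. Acadm, the medium-chain acyl-CoA dehydrogenase, had 329 and 290 CPM in mutant high cells, against 1852 and 1482 CPM in control high cells, and 49.6, 67.4, 85.8 and 88.1 CPM in mutant low cells, against 109, 102, 119 and 192 CPM in control low cells. No groups overlapped, but the lower values of mutant low cells did not pass the test (adjusted p = 0.0506), and the effect was more negative in high cells (difference -1.59, SE 0.43, adjusted p = 0.0309). Eci1, an enoyl-CoA isomerase, differed by -1.81 (SE 0.36, adjusted p = 0.00612), Acads by -2.78 (SE 0.56, adjusted p = 0.0072) and the carnitine carrier Slc25a20 by -0.99 (SE 0.28, adjusted p = 0.0381). The calls at Acadm and Slc25a20 were lost without any single high library (highest adjusted p = 0.125 and 0.119) and without some low libraries. The block for the description number ended those at Acads (adjusted p = 0.0565) and Slc25a20 (0.122). The count of 4 became 2 if mutant high replicate 1, control high replicate 1 or control high replicate 2 was omitted.

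The nuclear-encoded respiratory chain, a list put together after the values had been seen, had 17 of 77 genes tested more negative in high cells. That is 22.1% against 3.05% of all loci, with a median of -1.53. Because the list was chosen after the values, its shares describe it and test nothing. In high cells 43 of the 77 were called lower, against 11.2% of all loci, and in low cells 1 was, against 3.21%. Ndufs1, the largest subunit of complex I, had 123 and 139 CPM in mutant high cells, against 633 and 533 CPM in control high cells, and 108 to 178 CPM in mutant low cells, against 96.1 to 132 CPM in control low cells. High groups were apart and low groups overlapped, with a difference of -2.32 (SE 0.36, adjusted p = 0.00168). Ndufs7 differed by -2.96 (SE 0.59, adjusted p = 0.00617) and Cox7b, of complex IV, by -2.14 (SE 0.48, adjusted p = 0.0128), the last not called without mutant high replicate 2 (adjusted p = 0.0814) or control high replicate 2. All 84 genes of the list, tested or not, summed to 29027 and 36380 CPM in mutant high cells. In control high cells they summed to 94756 and 105010 CPM. The sums were 23431 to 31023 CPM in mutant low cells, against 25283 to 35358 CPM in control low cells. The count of 17 was 30 in DESeq2 and 12 with the block for the description number. It was 4 with mutant high replicate 1 or control high replicate 2 omitted and 3 with mutant high replicate 2 omitted. On chromosome M, 4 of 8 loci tested were called, all more negative in high cells (50%, against 3.05% of all loci), with a median of -2.62. These 4 form 2 pairs that overlap on opposite strands, whose fragments cannot be told apart, so they are not 4 separate results. Its ribosomal locus mt-Rnr2 had 3762 ± 650 CPM in mutant high cells, against 29109 ± 9289 CPM in control high cells (SD, n = 2 each), a difference of -2.52 (SE 0.53, adjusted p = 0.00834). The locus on its other strand had 2575 ± 1228 CPM in mutant high cells, against 42596 ± 30976 CPM in control high cells (SD, n = 2 each), more than mt-Rnr2 itself in control high cells. Proximal tubule markers, which belong to cells rich in mitochondria, moved with these genes in high cells, at 7087 and 7849 CPM in mutant against 32018 and 47044 CPM in control libraries, and their part in the result was not tested.

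Most proximal tubule markers, by contrast, fell in both populations. Of 40 proximal tubule genes, 35 were called lower in mutant high cells and 29 in mutant low cells, against 11.2% and 3.21% of all loci, while 1, the bicarbonate transporter Slc4a4, was called for the difference (2.5% more negative, against 3.05% of all loci), and the median difference was 0.20. DESeq2 called 2 more negative and 3 more positive. The fit with the block for the description number called 4 and 1. Slc4a4 had 84.1 and 50.2 CPM in mutant high cells, against 370 and 260 CPM in control high cells, with low groups overlapping at 5.03 to 6.35 CPM in mutant and 4.56 to 8.97 CPM in control libraries (difference -2.08, SE 0.42, adjusted p = 0.00698). Of 22 genes of the loop of Henle and distal tubule, Irx3 and the kinase Wnk1 were more negative (9.09%, against 3.05% of all loci), and the list's median was -0.43. These 22 genes summed to 4184 and 4950 CPM in mutant high cells, against 15312 and 24873 CPM in control high cells, and to 278 to 421 CPM in mutant low cells, against 487 to 1652 CPM in control low cells. A gene that missed the threshold is not shown to respond alike in the populations.

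Epithelial adhesion genes and keratins had 3 of 18 more positive, Krt19, Cldn4 and Cldn2 (16.7%, against 7.29% of all loci), and 1, Cldn7, more negative (5.56%, against 3.05%), with a median of 0.05. Cldn2, the pore-forming claudin of proximal tubule, was the single locus of the 1002 that was called lower in both populations. Cldn2 had 169 and 145 CPM in mutant high cells, against 803 and 637 CPM in control high cells. It had 0.808, 0, 0.222 and 0.162 CPM in mutant low cells, against 10.2, 16.2, 5.73 and 8.04 CPM in control low cells. Its fall was larger in low cells (difference 2.78, SE 0.73, adjusted p = 0.0276), and the call was lost in 11 of 25 other settings, among them the omission of either mutant high (adjusted p = 0.071 and 0.0666) or either control high library (adjusted p = 0.0653 and 0.125) and the block for the description number (adjusted p = 0.182). Cldn4 lost its call without control high replicate 1 (adjusted p = 0.11) and 2 other libraries in turn, and Cldn7 without mutant high replicate 2 (adjusted p = 0.0652).

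The 4 loci called higher in both populations, but with a smaller rise in high cells, were Angpt2, Nfib, Sgce and Prss16. Nfib, a transcription factor of the nuclear factor I family, had 157 and 135 CPM in mutant high cells, against 69.1 and 48.8 CPM in control high cells, and 81.3, 62.5, 92.7 and 99.8 CPM in mutant low cells, against 3.63, 7.07, 8.00 and 8.29 CPM in control low cells. The groups did not overlap in either population, and the rise was 1.30 (SE 0.35) in high and 3.63 (SE 0.28) in low cells, a difference of -2.33 (SE 0.44, adjusted p = 0.0049). Sgce, an imprinted gene that encodes epsilon-sarcoglycan, differed by -2.17 (SE 0.42, adjusted p = 0.00558), with 28.9 to 36.1 CPM in mutant low cells, against 1.22 to 2.69 CPM in control low cells. Angpt2 differed by -2.20 (SE 0.39, adjusted p = 0.00342), but reads of Mcph1 on its other strand came to 92.1% of its own, and Prss16 was not called without control high replicate 1 (adjusted p = 0.461) or either mutant high library. Prss16 was not called with the block for the description number (adjusted p = 0.0887). Of 23 imprinted genes, 5 others (Nnat, Mest, Peg3, Zim1 and Grb10) were more positive in high cells (21.7%, against 7.29% of all loci), and the list's median was 0.73. Mest, paternally expressed in embryonic mesoderm, had 1419 and 1598 CPM in mutant high cells, against 483 and 161 CPM in control high cells, with overlapping low groups (difference 2.64, SE 0.55, adjusted p = 0.00796). Of the other 4, Nnat, Peg3, Zim1 and Grb10, each lost its call without at least 1 high library (highest adjusted p = 0.0646, 0.084, 0.133 and 0.178). Zim1 (adjusted p = 0.133) and Grb10 (0.119) lost it with the block for the description number. Zim1 was not called in DESeq2 either. It rested on 1 fragment in control high cells, with a ratio in high cells of 32.5 (counting interval 5.65 to 1300).

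**Figure D5:**
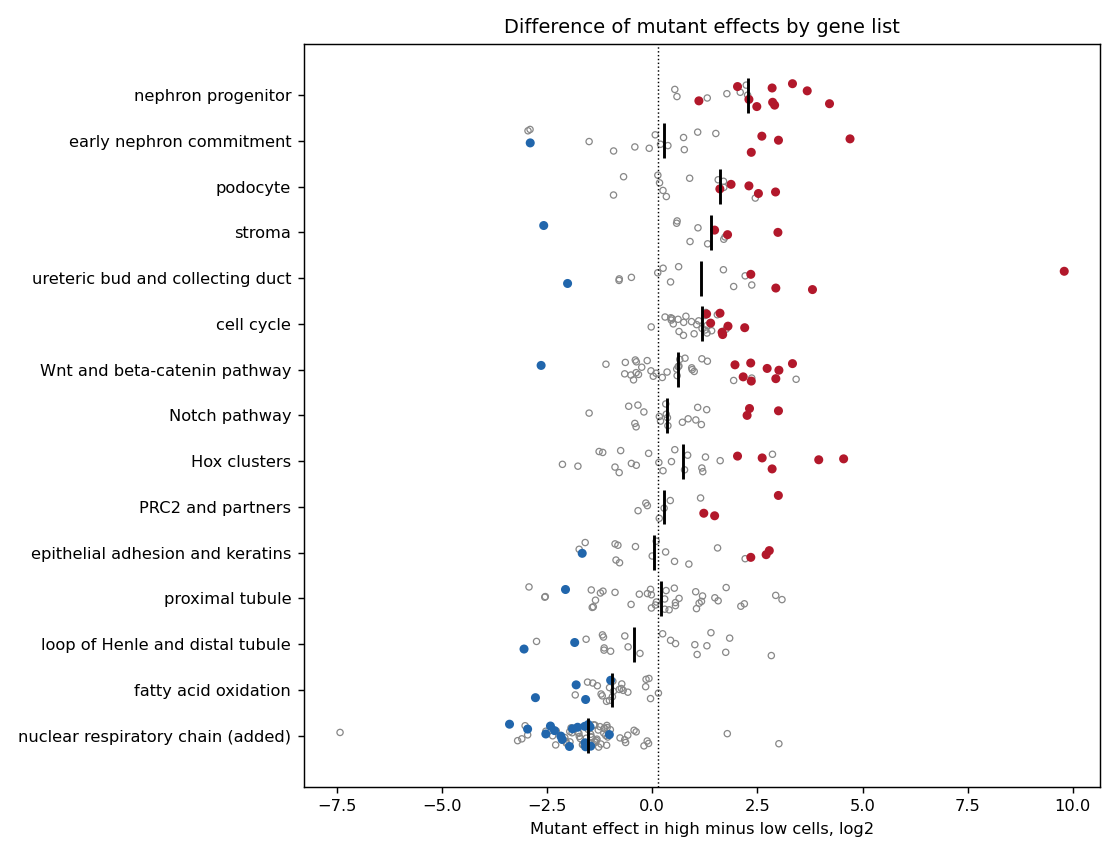
Difference of mutant effects (log2, high minus low cells) for the genes of 15 lists, with 1 point per gene tested, filled where called (red more positive, blue more negative), a thick bar at the list's median and a dotted line at the median of all loci, 0.15. Genes with a group at 0 in every library are not drawn. Progenitor genes, with a median of 2.27, lie on the right and the nuclear respiratory chain, with a median of -1.53, on the left.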

How the data were processed

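The authors deposited raw, estimated counts, in fragments for each transcript, with UCSC identifiers and mm9 positions, which are printed as deposited. The table's title speaks of raw CuffDiff2 fragments, while the submitters' processing notes list Bowtie2, HTSeq, DESeq2 and mm9 without roles. Settings of the alignment, and whether strand was used, were not given in the sources used. Fragments of loci that overlap on opposite strands therefore cannot be told apart. Of 55418 rows, 303 had no position and held 0 fragments.

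Transcripts overlapping on a strand were summed to 26699 loci and rounded to whole counts, since 99.4% to 99.9% of the sums, but 42.5% to 49.2% of the transcript values above 0, were whole within 0.01. The plan had assumed gene counts, which these sums replaced. Genes were named by matching each transcript to GENCODE M21 models by chromosome, strand, span and spacing to neighbours, with no coordinate converted, and 13021 of 13749 loci tested (94.7%) got a name. Reads shared by near-identical copies could not be examined.

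Tests were by edgeR 4.0.16 under R 4.3.3 (quasi-likelihood F, robust, TMM scaling, filterByExpr by group, no covariate, two-sided), with Benjamini-Hochberg adjustment over 13749 loci. All 12 libraries entered a single fit with 8 residual degrees of freedom, because each high group holds 2 libraries. SE is the absolute log2 fold change over the root of F. Library totals of 4549011 to 12365078 fragments set the counting precision. Where a group had none, 3 fragments over all its libraries served as the floor, and intervals at 95% are exact binomial ones. Both cover counting error only.

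Genes were named in the text by a rule: an adjusted p under 0.05, an absolute difference of 1 or more, 5 CPM or more as the mean of a group, and the 12 smallest adjusted p in each direction, plus called members of the gene lists. Of these, 3 genes, 1 of them among the 12 with the smallest p, are counted where counts are given but are not reported here. The lists were of marker genes of 9 kidney cell types or lineages, adhesion, Polycomb, Hox, other transcription factors, the cell cycle, inhibitors of cyclin-dependent kinases, 3 signalling groups, fatty acid oxidation, imprinting and chromosome M. Genes outside this rule, among them Cdkn2a, Cdkn1a, Ccng1, Nfib, Angpt2 and Prss16, were chosen after their values were seen. Members, lists and tests were chosen with earlier results of these data known. Alternatives were DESeq2 1.42.0, voom of limma 3.58.1, other scaling, filters and features, replicate blocks, subsets of libraries and leaving out each library. The fit was also run on simulated counts as a check of the code, and no result here rests on that run.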

Additional observations from a re-analysis of the deposited data

Results flagged for a closer look

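By the interaction test 1422 loci responded differently to the mutation in high and in low cells. For 23 genes, 12 more positive and 11 more negative in high cells, that test is what draws attention. Where the effect was more positive in high cells, the difference of effects on the log2 scale was 4.63 at Cdh13, 4.00 at Ube2c, 3.62 at Sulf1, 3.50 at Phlda3, 3.18 at Meis2, 4.40 at Masp1, 3.69 at Tnc, 3.88 at Socs3, 4.07 at Syt12, 3.45 at Lsp1 and 6.31 at Eda2r, the last resting on a single fragment in control high cells. Msln, with no fragment in control high cells, had an adjusted p of 0.00048. Where the effect was more negative, it was -4.42 at Sall3, -2.83 at Car14, -2.36 at Cpox, -3.06 at Car4, -2.40 at Slc35f2, -2.44 at Fads3, -2.51 at Gpc4, -2.88 at Slc38a3, -3.11 at Papss2 and -2.23 at Neurl4. Jarid2, listed at 0 in control low cells, had an adjusted p of 4.42e-07.

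Single libraries stood apart from the other 3 of their group by Dixon's test at the 95% critical value in 7 of 54 groups of 4 tested, where chance flags about 1 in 20. These were Socs3 at 112 CPM in mutant low replicate 1, Syt12 at 20 CPM in mutant low replicate 2, Eda2r at 7.89 CPM in control low replicate 3, Papss2 at 65.5 CPM in mutant low replicate 3 and at 10.9 CPM in control low replicate 3, Ezh2 at 229 CPM in mutant low replicate 2 and Suz12 at 27 CPM in mutant low replicate 3. The groups of 2 high libraries could not be tested in this way.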

How the results depend on the processing

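The calls kept their sign in every alternative that tested them except with each transcript as a feature, where 1408 of 1418 did. In that setting Wnk1 had a difference of 2.47 and 4931406C07Rik of 0.06, both reversed. The 23 genes named first kept their sign in every setting, and 5 of them (Ube2c, Sulf1, Meis2, Slc38a3 and Neurl4) lost their call, with transcripts as features. The counts moved more, and the causes were not tested. With transcripts as features, 544 were called (430 more positive, 114 more negative), 2012 in high and 427 in low cells. DESeq2 called 720 more negative, and removing the trend on locus span 669. Besides the losses given above, removing that trend ended the calls at Sall1, Postn, Hoxc8, Fzd2 and Grb10. The fold threshold of 1, stricter by construction, left 316 (254 and 62), 1453 in high and 346 in low cells. With the 8 libraries that share description numbers 865 were called (633 and 232), 257 in low cells, and with the 7 numbered up to 7 there were 407 (262 and 145), 467 in low cells, fits of fewer libraries.

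Whether a shared number pairs libraries is not settled: the correlations of deviations within pairs were 0.224, -0.0468, 0.134 and -0.0793 for description numbers and 0.224, -0.14, 0.134 and 0.0468 for title numbers, not all positive, while chromosome Y was alike in 4 of 4 pairs by description and in 3 of 4 by title. A replicate block by title number gave 1921 calls, 696 of them more negative. A block by description number gave 1031, held 839 of the 1422 and ended 43 of the 159 calls at named genes, with the sign unchanged at each of the 159. Leaving out 1 library at a time, the lone library left in a high group being assumed to vary like the other groups, gave 572 (without control high replicate 2) to 1482 calls, 359 to 1033 of them more positive and 134 to 449 more negative, with 1996 to 4010 in high and 774 to 1149 in low cells. The median difference of all loci was 0.15, and 0.28 with no filter on low counts. With 2 libraries in each high group, a gene that missed the threshold is not shown to be without a difference.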
